A study of Mus musculus with 6 samples.

Results

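The 10 genes described here encode the MCM helicase (*Mcm2* to *Mcm7*) and the GINS complex (*Gins1* to *Gins4*). They were taken by name: a gene was a member if exactly 1 gene symbol of the platform annotation was given for its array feature and that symbol was on the list. All 10 were found among the 19938 genes measured, each with 1 transcript cluster, which is the set of probes that the array summarises into 1 value. The cells were N2A, a mouse neuroblastoma line, grown with 10% fetal bovine serum and transiently transfected with 1.5 µg of vector. The 3 control samples received a non-targeting vector, the 3 knockdown samples received a vector for a short hairpin RNA against *Paupar*, a long non-coding RNA transcribed upstream of *Pax6*, and RNA was taken 2.5 days later. All 6 samples were therefore transfected cells of the same line, with an expression construct in both groups, and a single hairpin construct stood for the knockdown. Nothing in the annotation used here named a cluster for *Paupar*, so its level was not checked on these arrays. The paper reports lower *Paupar* by qRT-PCR with its hairpin vector. It also reports that additional hairpins gave consistent changes in the *Paupar*-regulated genes it tested by qRT-PCR.

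MCM2 to MCM7 form a ring that is loaded around DNA at replication origins before S phase, when it is still inactive. In S phase, kinases and loading factors bring CDC45 and GINS to the ring, and the assembly of CDC45, MCM and GINS, known as the CMG helicase, unwinds DNA ahead of the polymerases. Genes for these subunits are well-known targets of E2F transcription factors, and their RNA is used as a sign of proliferating cells. The comparison asks how the RNA of the subunits differed between cells with and without the hairpin against *Paupar*.

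Every member had a higher mean in the knockdown samples, and 6 of the 10 rose past the threshold used throughout, an adjusted p under 0.05 in limma. These were *Mcm2*, *Mcm3*, *Mcm4*, *Mcm5* and *Mcm7* of the helicase ring and *Gins3* of GINS. Of the 9969 genes tested, 2.39% rose by the same rule and 7.54% changed in either direction. *Mcm6* narrowly missed the threshold, *Gins4* and *Gins1* missed it, and *Gins2* did not pass the filter on variation and was not tested. Over all 10 members, the untested one included, the median log2 fold change was 0.56, which is 1.48-fold, against a median of 0.03 over all genes measured. In 8 members, the 3 knockdown values all lay above the 3 control values, which was so for 15.1% of the genes tested. In RNA of whole cultures, more cells in S phase and more RNA per cell cannot be told apart. The paper reports, from DNA content by flow cytometry, that N2A cells with *Paupar* knocked down accumulated in S and G2 phases. The part of this in the values here was not tested.

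Before the values, the windows around the annotated transcription starts are shown, because the members moved together and because E2F sites are what these promoters are known for. RefSeq windows of GRCm38.p6, covering 250 bases before and 50 after each start, were given for 6 members (*Mcm2*, *Mcm3*, *Mcm5*, *Mcm6*, *Mcm7* with 2 windows, and *Gins3*). *Mcm4*, *Gins1*, *Gins2* and *Gins4* had no entry. Both strands were searched for 4 words of the E2F type, TTTCCCGC, TTTGGCGC, TTTGCCGC and TTTCGCGC, counting overlapping matches separately, and positions are counted from 0 at the start. At least 1 word was found in 5 of the 6 members, against 2.26% of all 32851 windows and 2.6% of the 27025 genes with a window. In 4 members, *Mcm3*, *Mcm5*, *Mcm6* and *Mcm7*, a window held 2 or more, as did 0.0974% of all windows. The stretches that hold these words, except for the downstream word of *Mcm7*, are printed 5′ to 3′ along the gene, with the words in capitals. The *Mcm6* stretch is chr1:128359741-128359820, the *Mcm3* stretch chr1:20820265-20820294 and the *Mcm7* stretch chr5:138172029-138172068, all on the minus strand. The *Mcm5* stretch is chr8:75109339-75109378 and the *Gins3* stretch chr8:95633499-95633538, both on the plus strand.
Mcm6: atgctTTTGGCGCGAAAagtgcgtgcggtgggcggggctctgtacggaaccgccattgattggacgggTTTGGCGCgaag
Mcm5: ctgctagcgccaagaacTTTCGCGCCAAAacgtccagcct
Mcm7: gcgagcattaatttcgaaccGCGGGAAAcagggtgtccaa
Gins3: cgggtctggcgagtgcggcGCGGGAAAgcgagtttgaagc
Mcm3: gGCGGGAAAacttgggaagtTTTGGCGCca

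In *Mcm6* and in *Mcm5*, the longer run of capitals is a pair of words on opposite strands that overlap at their ends. The *Mcm6* words began at -110, -106 and -47, the *Mcm5* words at -153 and -149 and the *Gins3* word at -41. The words of *Mcm3* lay just downstream of the start, at 19 and 38, and *Mcm7* had 1 at -165 and another at 16, in the first of its windows only. *Mcm2*, which rose as well, held none of the 4 words in its window. Its stretch chr6:88898801-88898860, on the minus strand, is shown for contrast, with capitals for the GC box word GGGCGG and for TTTGAA, a word of the cell cycle homology region (CHR) type that late cell cycle promoters carry.
Mcm2: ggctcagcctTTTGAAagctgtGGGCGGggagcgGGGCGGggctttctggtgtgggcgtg

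The other words searched on both strands stood in larger shares of all windows. A CHR word, TTTGAA or TTCGAA, stood in the windows of *Mcm2*, *Mcm7* and *Gins3*, against 19.2% of all windows. CCAAT was found in all 6 members with a window, against 37.4% of all windows, and GGGCGG in 5 of them, all but *Mcm5*, against 35.7%. A match is a run of letters and no record of binding, and a window without one says nothing of sites elsewhere.

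**Figure D1:**
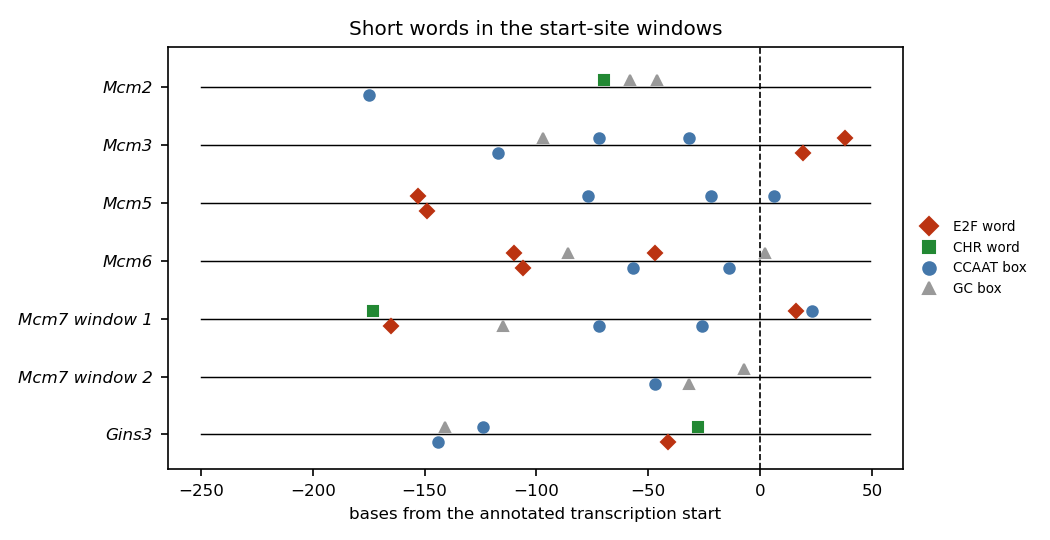
Positions of short words in the start-site windows of the 6 members with an entry, with bases from the annotated start on the x axis and 1 line per window. Marks above a line are on the strand of the gene and marks below on the other strand, with TTCGAA, which reads the same on both, drawn above. E2F words (diamonds) lie on the lines of *Mcm3*, *Mcm5*, *Mcm6*, *Gins3* and the first *Mcm7* window, and none lies on that of *Mcm2*.

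The largest change among the members was that of *Mcm3*, a ring subunit. On the log2 scale of the arrays, *Mcm3* read 9.93, 10.68 and 10.71 in controls 1 to 3 and 11.29, 11.27 and 11.14 in knockdowns 1 to 3. The knockdown values stayed within 0.15 of each other, the control values spread over 0.78, and 0.43 separated the lowest knockdown from the highest control. The log2 fold change was 0.80 with a standard error of 0.18 (1.74-fold, 95% confidence interval 1.34 to 2.25, adjusted p = 0.0177).

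*Mcm4*, together with *Mcm6* and *Mcm7*, encodes the part of the ring that has helicase activity on its own in vitro. It read 9.93, 10.78 and 10.62 in the controls and 11.22, 11.24 and 11.03 in the knockdowns. Control 1 stood apart by far more than the other controls differed from each other, and the groups did not overlap. The log2 fold change was 0.72 with a standard error of 0.18 (1.65-fold, interval 1.26 to 2.15, adjusted p = 0.0298).

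*Mcm7* read 11.50, 11.98 and 11.94 in the controls and 12.57, 12.51 and 12.25 in the knockdowns. Its groups were 0.26 apart at their closest. The log2 fold change was 0.64 with a standard error of 0.15 (1.55-fold, interval 1.25 to 1.93, adjusted p = 0.0214). *Mcm6* read 10.38, 10.90 and 10.76 in the controls and 11.26, 11.35 and 10.97 in the knockdowns. Knockdown 3 lay only 0.07 above control 2, the narrowest gap among members whose groups did not overlap. The log2 fold change of *Mcm6* was 0.51 with a standard error of 0.15 (1.43-fold, interval 1.14 to 1.79) and the adjusted p was 0.0513.

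*Mcm2* and *Mcm5* encode the subunits on either side of the gate through which the ring opens onto DNA. *Mcm2* read 10.99, 11.61 and 11.58 in the controls and 12.08, 12.02 and 11.82 in the knockdowns. *Mcm5* read 10.95, 11.48 and 11.52 in the controls and 12.02, 12.01 and 11.77 in the knockdowns. Both had a low control 1 and a knockdown 3 nearest to the controls, without overlap. The log2 fold change was 0.58 for *Mcm2* (standard error 0.16, 1.49-fold, interval 1.18 to 1.89, adjusted p = 0.0414). That of *Mcm5* was 0.62 (standard error 0.15, 1.54-fold, interval 1.23 to 1.93, adjusted p = 0.0278).

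The GINS genes were less uniform. *Gins3*, for the subunit also called PSF3, read 8.78, 9.15 and 9.06 in the controls and 9.57, 9.60 and 9.47 in the knockdowns. The groups were 0.31 apart and the knockdown values spanned 0.13. It was the only GINS gene past the threshold, with a log2 fold change of 0.55 and a standard error of 0.13 (1.46-fold, interval 1.21 to 1.77, adjusted p = 0.0224). *Gins4* (SLD5) read 11.03, 11.24 and 11.36 in the controls and 11.63, 11.61 and 11.50 in the knockdowns. Its groups did not overlap either, yet the log2 fold change of 0.37 with a standard error of 0.12 (interval in fold 1.07 to 1.55) had an adjusted p of 0.0843.

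*Gins1* (PSF1) read 8.19, 9.22 and 8.89 in the controls and 9.35, 9.04 and 8.95 in the knockdowns. Control 2 was above 2 of the 3 knockdown values, and the control range of 1.02 was the widest of any member. The log2 fold change was 0.35 with a standard error of 0.20 (interval in fold 0.94 to 1.72, adjusted p = 0.279). *Gins2* (PSF2) read 9.76, 10.14 and 10.26 in the controls and 10.27, 10.22 and 10.44 in the knockdowns. Control 3 and knockdown 1 were nearly the same, so the groups overlapped slightly. Its interquartile range over the arrays ranked at the 30.5th percentile of all genes, under the limit for testing, and in the fit to all genes its log2 fold change was 0.26 (95% confidence interval -0.04 to 0.55, adjusted p = 0.344).

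**Figure D2:**
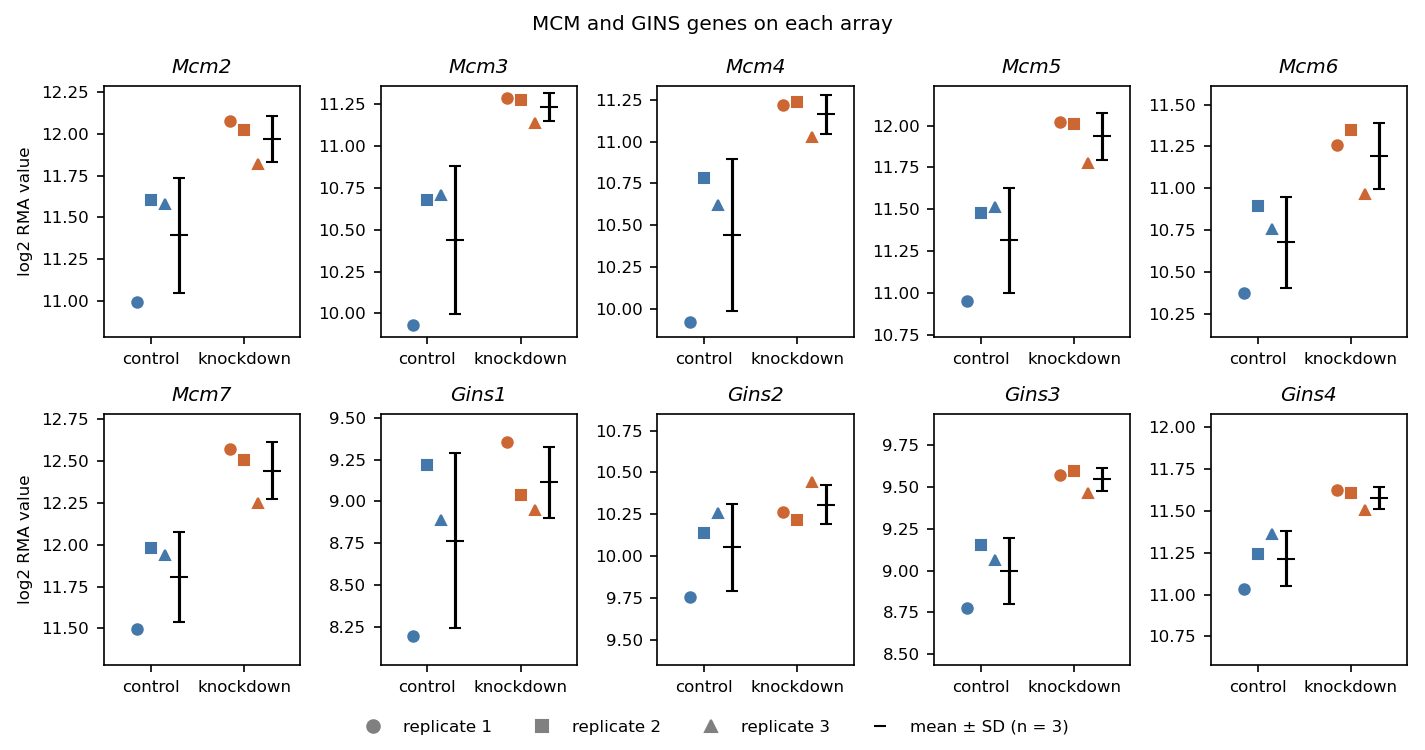
log2 values of the 10 members on the 6 arrays, with controls in blue, knockdowns in orange, a symbol per replicate and the mean ± SD (n = 3) in black beside each group. Every panel spans the same height on the y axis but has its own level. Control 1 is the lowest point of each panel, and the groups overlap in those of *Gins1* and *Gins2*.

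The members ran in parallel across the arrays, within the groups as well as between them. Control 1 had the lowest of the 6 values for all 10 members. Among the 3 controls alone, it was the lowest for all 10 members and for 30.7% of all genes. Relative to each gene's control mean, the 6 MCM genes averaged -0.40, 0.22 and 0.18 in controls 1 to 3 and 0.73, 0.72 and 0.48 in knockdowns 1 to 3. The 4 GINS genes averaged -0.32, 0.18 and 0.14 in the controls and 0.45, 0.36 and 0.33 in the knockdowns. Knockdown 3 was the lowest of the knockdowns for 9 members, and for 44.8% of all genes. The exception was *Gins2*, which was highest there. On the same scale, the median over all genes measured lay between -0.03 and 0.04 on the 6 arrays.

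The rise was smaller in GINS than in MCM genes on average. The mean difference between groups was 0.64 for the MCM genes and 0.38 for the GINS genes, and their gap was -0.08, 0.04 and 0.04 in the controls and 0.28, 0.36 and 0.15 in the knockdowns. The knockdown gaps all exceeded the control gaps, but the difference between the complexes was not tested. The change of *Gins3* (0.55) lay within the range of the ring genes (0.51 to 0.80), while those of *Gins1*, *Gins2* and *Gins4* lay below it.

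**Figure D3:**
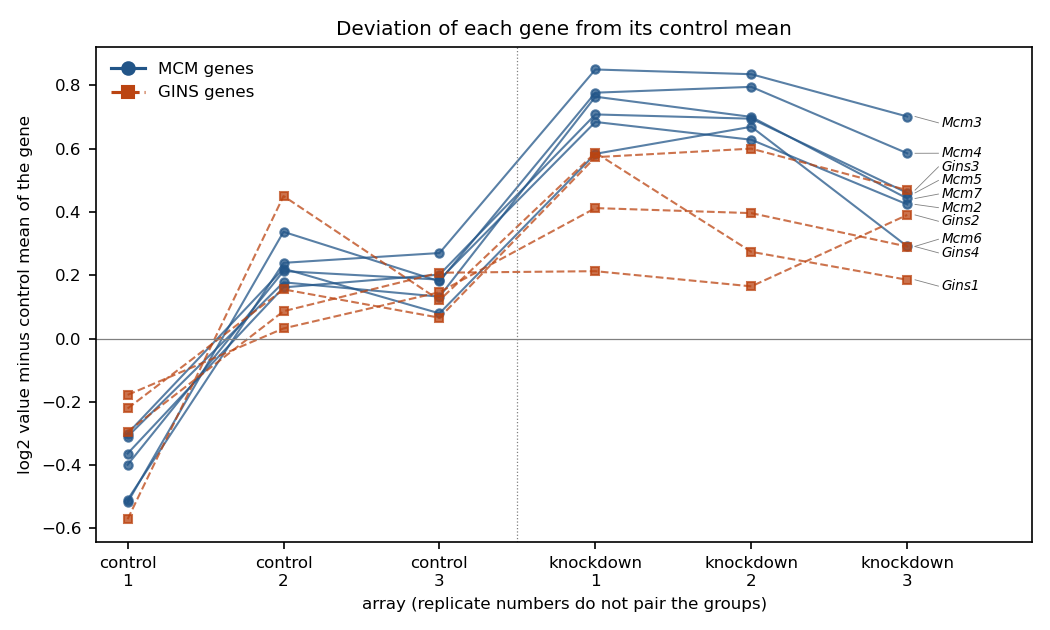
Deviation of each member from its mean over the controls (y axis, log2 units) on each of the 6 arrays (x axis), with MCM genes as solid and GINS genes as dashed lines, which join arrays only to guide the eye. All lines start below 0 at control 1. In the knockdowns the MCM lines run between 0.29 and 0.85 and the GINS lines between 0.16 and 0.60.

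The number of calls depended on which arrays were kept. Without control 1, the mean difference fell to 0.44 for the MCM genes and 0.22 for the GINS genes, and that of *Gins1* to 0.06. Every member still had a higher mean in the knockdowns, which was fixed in advance for the 8 whose groups did not overlap. Only *Mcm3* then passed the threshold (adjusted p = 0.0364), and only *Mcm3* without knockdown 1 (adjusted p = 0.04997). No member passed without control 3 or without knockdown 2, where limma gave 8 members an unadjusted p under 0.05 in either case. Such a p was common: with all 6 arrays, limma gave it to 2622 of the 9969 genes tested. The number over all genes without control 3 or knockdown 2 was not counted. Without control 2 or without knockdown 3, *Mcm6* joined the 6 members that passed with all arrays. The share of all genes tested that rose moved too. It was 2.39% with all arrays, 0.48% without control 1 and 0.40% without knockdown 1. Without control 3 or without knockdown 2 it was 0.25%, without control 2 2.69% and without knockdown 3 3.35%.

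**Figure D4:**
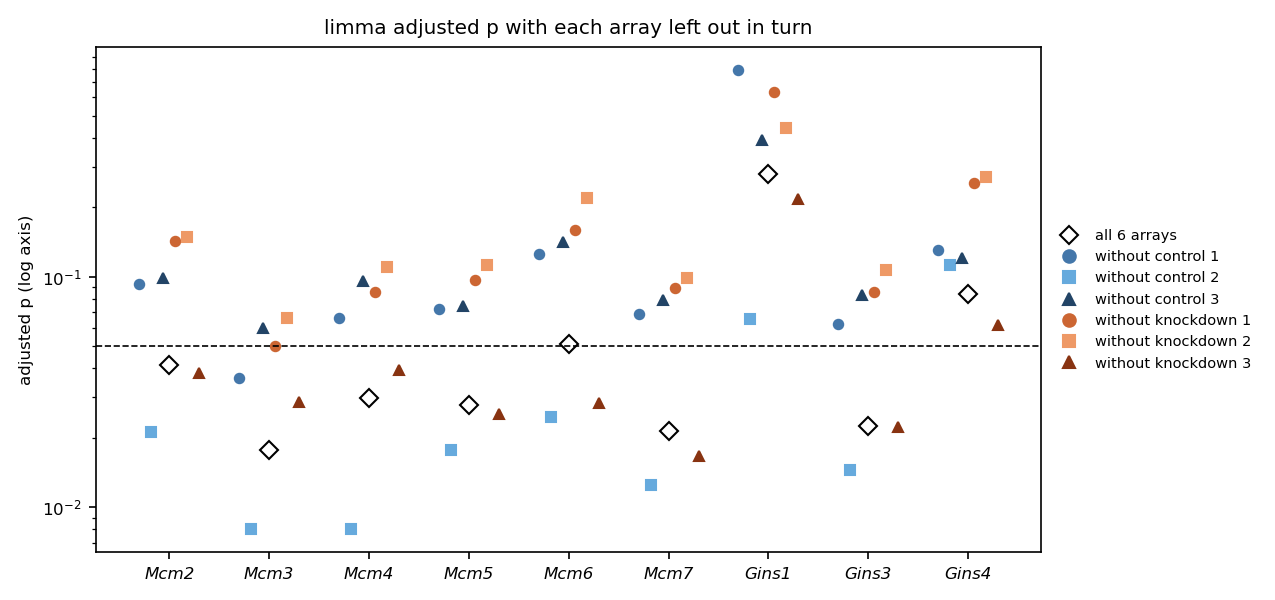
limma adjusted p (y axis, log scale) of the 9 members tested, with all 6 arrays (open diamonds) and with each array left out in turn (coloured points), and the threshold of 0.05 as a dashed line. Most points for the runs without control 1, control 3, knockdown 1 or knockdown 2 lie above the line, and *Mcm3* has 4 of its 6 below it.

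Genes that load the ring rose in part. The origin licensing list held the origin recognition complex (*Orc1* to *Orc6*), the loading factors *Cdc6* and *Cdt1*, the CDT1 inhibitor geminin (*Gmnn*) and the MCM binding protein *Mcmbp*. Of 10 genes, 9 were tested and 3 rose, with a median log2 fold change of 0.34 over all 10. The mean was higher in the knockdowns for 8 of the 10, against 58.4% of all genes measured. *Cdc6* read 7.98, 8.40 and 8.25 in the controls and 9.25, 9.13 and 8.87 in the knockdowns, without overlap. Its log2 fold change was 0.87 (adjusted p = 0.00352), against 0.80 for *Mcm3*, a difference that was not tested. *Orc6* (0.68, adjusted p = 0.0231) and *Cdt1* (0.51, adjusted p = 0.0414) rose too. *Orc4* went the other way, with 10.07, 10.09 and 9.91 in the controls and 9.78, 9.63 and 9.83 in the knockdowns, all below the controls (-0.28, adjusted p = 0.157). All knockdown values lay below all control values in 1596 of the 9969 genes tested. *Orc4* was looked at after its values were seen. The other genes tested did not pass, and *Orc3* was not tested.

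Genes that turn the loaded ring into an active helicase leaned the same way. In the helicase activation list, 11 of 12 genes were tested and 5 rose, with a median log2 fold change of 0.46, and all 12 had a higher mean in the knockdowns. *Ccne2*, for cyclin E2, which activates CDK2 at the start of S phase, read 9.58, 10.38 and 10.24 in the controls and 10.97, 10.95 and 10.71 in the knockdowns (log2 fold change 0.81, adjusted p = 0.0163). *Cdc45*, whose product completes the CMG helicase with MCM and GINS, read 8.99, 9.67 and 9.67 in the controls and 10.18, 10.16 and 9.97 in the knockdowns (0.66, adjusted p = 0.0301). Both had their lowest value in control 1, as the ring genes did. *Mcm10*, a factor needed to start unwinding and not a ring subunit, changed by 0.60 (adjusted p = 0.0380), and *Cdk2* by 0.53 (adjusted p = 0.0236). The remaining gene that rose was *Ticrr* (treslin).

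The replisome partners, which are polymerases, primase and factors that travel with the helicase, rose in part. Of 17 genes, 16 were tested, 5 rose and none fell, with a median log2 fold change of 0.41. *Tipin*, which forms the fork protection complex with *Timeless*, read 9.68, 10.05 and 10.04 in the controls and 10.45, 10.77 and 10.56 in the knockdowns (0.67, adjusted p = 0.0123). Its partner *Timeless* changed by 0.41 without passing (adjusted p = 0.0967). The primase subunit *Prim2* (0.57, adjusted p = 0.0209), the fork scaffold *Wdhd1* (0.54, adjusted p = 0.0380) and the polymerase delta subunit *Pold2* (0.48, adjusted p = 0.0304) rose, as did *Pold3*.

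Factors that take the helicase off DNA did not pass the test. Of the 6 genes of the helicase unloading list, only 2 varied enough to be tested. *Lrr1*, the substrate receptor of the ligase that marks MCM7 for removal, read 8.84, 9.87 and 9.67 in the controls and 10.28, 10.16 and 9.98 in the knockdowns. Its log2 fold change was 0.68, in the range of the ring genes, with an adjusted p of 0.0552. *Faf1* differed by 0.32 (adjusted p = 0.192). Of the other MCM family, *Mcm8*, whose product acts with MCM9 in recombination, differed by 0.48 (adjusted p = 0.0724) and *Mcm9*, which was not tested, by 0.09. Over the 5 lists together, 13 of the 40 genes tested rose and 0 fell, 8 more were measured but not tested, and the median log2 fold change of the 48 was 0.40.

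**Figure D5:**
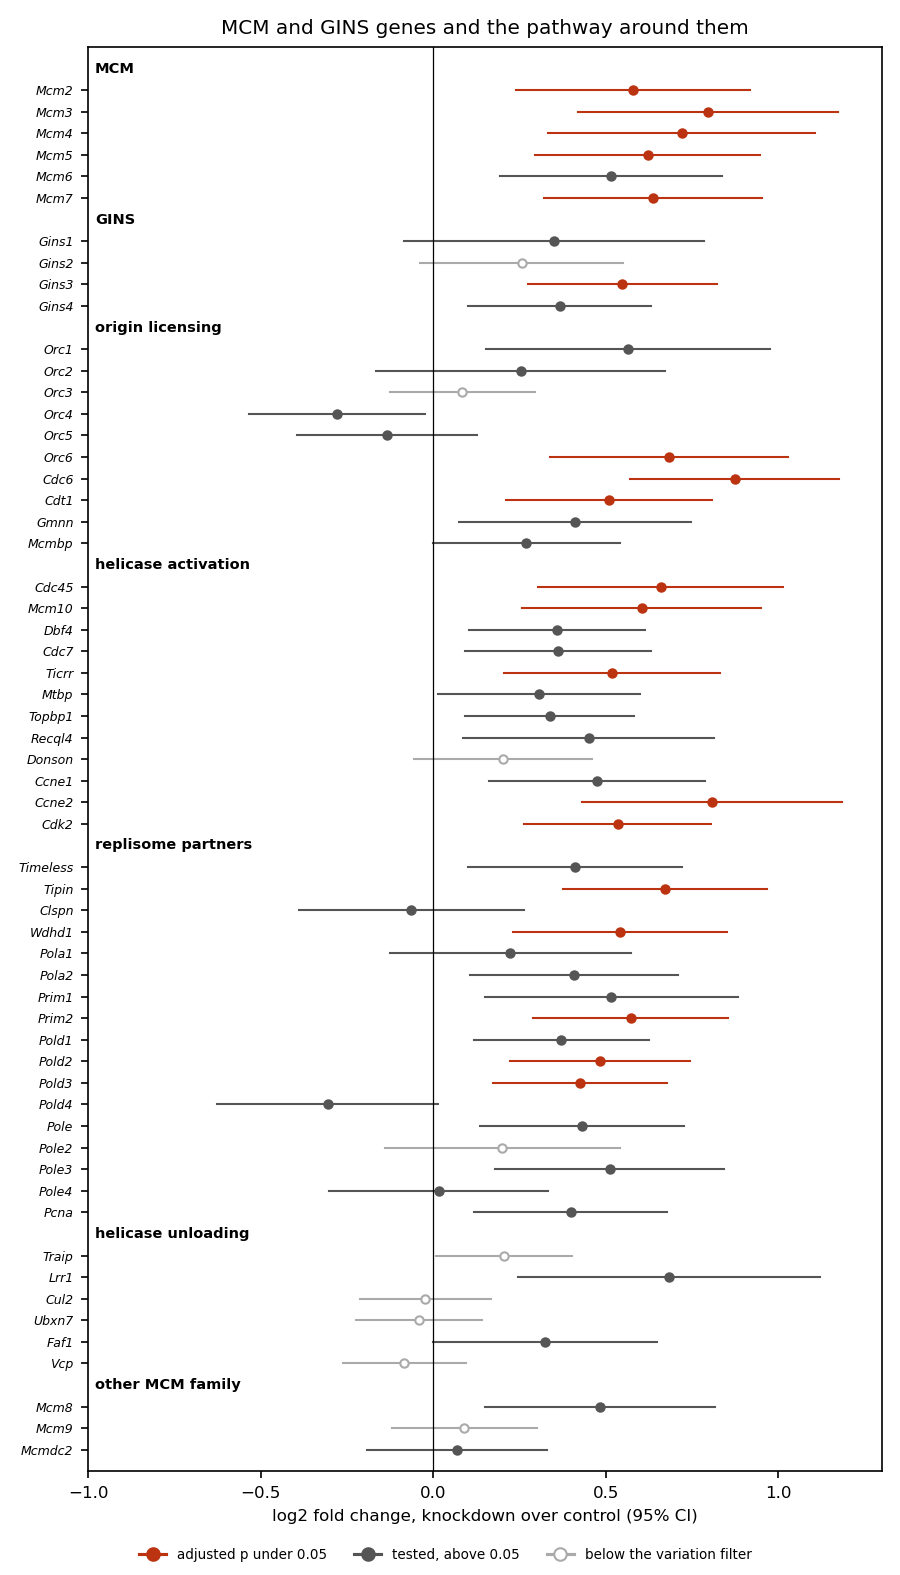
log2 fold change of knockdown over control (x axis, point) with its 95% confidence interval (line) for the members and the 5 pathway lists. Red marks an adjusted p under 0.05, dark grey a gene tested that missed it and open light grey a gene under the variation filter, whose interval is from the fit to all genes. The red points all lie to the right of 0, between 0.42 and 0.87.

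The E2F family, whose members bind words of the kind found in these promoters, was measured on the same arrays. Of 13 genes for E2F factors, their partners and the pocket proteins that restrain them, 11 were tested, 6 rose and none fell, with a median log2 fold change of 0.32. *E2f2*, an activator, read 9.03, 9.29 and 9.48 in the controls and 10.28, 10.30 and 9.90 in the knockdowns (0.89, adjusted p = 0.00364). *E2f7*, a repressor of E2F targets, read 10.25, 10.46 and 10.53 in the controls and 11.32, 11.26 and 10.91 in the knockdowns (0.75, adjusted p = 0.00654). The E2F genes that rose thus included both an activator and a repressor. The dimer partner *Tfdp2* (0.60, adjusted p = 0.0123) and *Tfdp1* (0.52, adjusted p = 0.0197) rose as well, as did *E2f6* and *E2f8*. *E2f1* differed by 0.32 (adjusted p = 0.118) and the pocket protein gene *Rb1* by -0.07 (adjusted p = 0.798).

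*Mcm7* hosts 3 microRNAs in an intron, which share its primary transcript. They are shown because the arrays hold a cluster for each. The mature sequences from RefSeq (GRCm38.p6, chromosome 5, minus strand) are printed with the seed, bases 2 to 8, in capitals.
mmu-miR-25-3p: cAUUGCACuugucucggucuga
mmu-miR-93-5p: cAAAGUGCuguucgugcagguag
mmu-miR-106b-5p: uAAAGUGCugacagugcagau

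miR-93 and miR-106b share the seed AAAGUGC, and miR-25 has another. *Mir25* read 8.44, 8.22 and 8.13 in the controls and 8.55, 8.47 and 8.35 in the knockdowns. *Mir93* read 7.66, 7.49 and 7.28 in the controls and 7.74, 7.69 and 7.56 in the knockdowns. Both had their highest control value in control 1, where *Mcm7* had its lowest, and in both the groups overlapped. Both log2 fold changes were 0.19 (adjusted p = 0.332 and 0.363), and *Mir106b*, under the variation filter, differed by 0.10. These clusters lie on the microRNA genes and do not measure the mature microRNA.

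Neighbouring genes were read for 3 members, and those tested did not pass. *Ap4m1*, for a subunit of an adaptor complex of membrane traffic, starts on the opposite strand within 1000 bases of *Mcm7*. It read 9.15, 9.06 and 9.33 in the controls and 9.28, 9.22 and 9.31 in the knockdowns, and unlike those of *Mcm7* its groups overlapped. Its log2 fold change was 0.09, and it was under the variation filter. *Prkdc*, for the catalytic subunit of DNA-dependent protein kinase, lies within 1000 bases of *Mcm4* in the RefSeq gene table and was looked at after the values were seen. It read 8.89, 9.17 and 8.90 in the controls and 9.05, 8.77 and 8.64 in the knockdowns (-0.16, adjusted p = 0.471). Besides the microRNAs, the other genes of that table within 1000 bases of a member and measured here, also looked at after the values were seen, were *Cops6* at *Mcm7* and *Gse1* and *Gm10614* at *Gins2*. *Cops6* differed by 0.09 and was under the variation filter, *Gse1* differed by 0.21 (adjusted p = 0.324) and *Gm10614* by -0.29 (adjusted p = 0.158). All knockdown values of *Gm10614* lay below its controls, as in 1596 of the 9969 genes tested.

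The genes tested whose profile was closest to the mean profile of the members, by root mean square difference over the 6 arrays after centring each gene, were *Pole3*, *Wdhd1*, *Suv39h2*, *Fancd2*, *Dtl*, *Rcc1*, *Hrob* and *Tube1*. Their differences from the mean profile ran from 0.03 for *Pole3* to 0.05 for *Tube1*, against a median of 0.37 over the 9969 genes tested. *Pole3* read 8.57, 9.15 and 9.16 in the controls and 9.53, 9.54 and 9.36 in the knockdowns. *Pole3* encodes a subunit of polymerase epsilon, *Suv39h2* a histone H3 lysine methyltransferase, *Fancd2* a protein of the Fanconi anaemia pathway, *Dtl* a receptor of the ligase that degrades CDT1, *Rcc1* the exchange factor of Ran and *Tube1* epsilon-tubulin. Of the members, *Mcm2* lay nearest to the mean profile (0.03) and *Gins1* farthest (0.18) among those tested. The profile was that of these arrays only, and the knockdown difference was part of it.

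The labelled cell type was checked against markers. Of 7 sympathetic neuroblast markers measured, 6 lay above the median of all genes on every array, *Ddc* being the exception. *Dbh* (-1.09, adjusted p = 0.000687) and *Th* (-0.68, adjusted p = 0.0105), for enzymes of noradrenaline and dopamine synthesis, fell in the knockdowns in which the members were higher, and their part in the result was not tested. Of markers of other cells, none of the 5 for glia passed the variation filter. Of the 6 for fibroblasts or muscle 4 were tested, and of the 5 for endothelium or blood 3, with 0 calls in limma in either direction and 0 with an unadjusted p under 0.05. In the limma fit to all genes, the collagen gene *Col1a2* (0.21) and the endothelial receptor gene *Kdr* (0.21) each had an unadjusted p of 0.0432 and an adjusted p of 0.252. Their knockdown values all lay above the controls, as did those of the glial gene *Aqp4* (0.16). This was so for 2545 of the 19938 genes measured. The part of these genes in the result was not tested either. *Col1a1*, a fibroblast collagen gene, was the only one of these markers above the median on every array. Their mean levels per array ran from 6.65 to 7.10 in the controls and from 6.77 to 7.06 in the knockdowns.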

How the data were processed

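RNA of 3 control and 3 knockdown samples of N2A cells, 200 ng each, was profiled on Mouse Gene 1.0 ST arrays of Affymetrix. Per the methods and labels, the authors background corrected and quantile normalised the arrays and summarised them by RMA, so the deposited values are log2 expression values. Quantile normalisation would hide a change shared by all genes. RMA gives no read depth, and the number of arrays limits the precision. The methods call the samples biological replicates. Their tool versions are not given in these sources.

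Of 35556 clusters, 21789 had 1 gene symbol in the platform annotation, 1621 several and 12146 none. The cluster with the highest mean was kept per gene. As in the methods, genes of little variation were removed (lower 50% by interquartile range, a measure chosen here). The 9969 genes left were fitted with limma 3.58.1 under R 4.3.3 (lmFit, eBayes), and p-values were adjusted over all of them after Benjamini and Hochberg. For genes under the filter, a fit of every gene was read. A positive fold change means higher in the knockdown. The steps were tested on simulated data.

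The members, lists and rules were chosen with earlier results of these data known. Named genes were the members, up to 4 changed genes per list by size (2 where none passed), the 8 closest profiles, and opposite-strand genes within 1000 bases. Others are named as seen after the values (*Timeless*, *Ticrr*, *Pold3*, *E2f1*, *E2f6*, *E2f8*, *Rb1*, *Mir106b*, *Orc4*, *Orc3*, *Prkdc*, *Cops6*, *Gse1*, *Gm10614*, and the markers *Dbh*, *Th*, *Ddc*, *Aqp4*, *Col1a1*, *Col1a2* and *Kdr*). Neither the labels nor the methods say whether the replicate numbers pair the samples, and the main fit did not pair them.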

Additional observations from a re-analysis of the deposited data

How the results depend on the processing

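All 10 members were higher in the knockdown under the 15 alternatives run, but the number past the threshold changed. The filters, the handling of clusters, trend and robust moderation and the replicate block left the fold changes of the members as they were. Their direction could therefore not change there. With array weights or an array left out, it was also fixed for the 8 members whose groups did not overlap. Only *Gins1* and *Gins2* could have changed direction there, and did not. Centring the arrays on the median shifted all members alike, with the smallest change going from 0.256 to 0.271. Of the main count of 6 members and 13 pathway genes, 2 and 6 passed with no filter. Over all genes, 0.97% rose there, against 2.39% in the main fit. With all transcript clusters kept, 0 and 0 passed, and 0 of 17778 clusters did. There, limma gave 8 members an unadjusted p under 0.05, and also 27 pathway genes that were higher in the knockdown. How many of all clusters had such a p was not counted. With array weights, 9 and 32 passed, as did 5561 of 9969 genes. With the filter by sample variance 21 pathway genes passed, and with trend and robust moderation 20. Of all genes tested, 3.20% and 3.61% rose in these fits. Leaving out each array in turn gave 0 to 7 members and 1 to 19 pathway genes, while 0.25% to 3.35% of the genes tested rose. The lowest member counts came without control 3 and without knockdown 2. The replicate number as a block gave 7 members and 14 pathway genes, and 2.04% of all genes tested rose. The deviations of same-numbered samples, however, correlated at -0.29, 0.05 and 0.08, none of them over 0.1. The median log2 fold change of the members lay between 0.41 and 0.66. The cause of these moves was not tested.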
